A study of Mus musculus with 2 samples.

Results

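Transcripts of 34 genes of DNA replication and the S phase were compared between mouse embryonic ureters cultured with and without NOGGIN, an extracellular antagonist of bone morphogenetic protein (BMP) signalling. The genes were chosen by name, with earlier results of these data known. Their probes were all gene probes on both arrays whose accession maps to one of the 34 symbols. There were 39 such probes, and 33 of the 34 genes were measurable, among 21337 genes tested in all. Ureters came from wildtype NMRI embryos of mixed sex at E12.5 and were kept for 18 h on transwell membranes, with 10 µg/ml NOGGIN in the treated group and none in the control group. The data are 2 Agilent 2-colour microarrays, and on each of them 1 control culture and 1 NOGGIN culture were hybridised together, with the dyes exchanged between replicates 1 and 2. Nothing in the labels gives the number of embryos in a culture or ties the replicates to separate litters, so the spread between them may be technical. Dye assignment also differs between the replicates, so in a difference between the arrays dye and replicate cannot be told apart. The explants hold epithelium and mesenchyme together, and in such bulk RNA fewer cells in S phase and less RNA per cell cannot be told apart.

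Before S phase, the origin recognition complex together with CDC6 and CDT1 loads rings of the MCM helicase onto DNA. CDC45 and the GINS complex then turn these rings into moving helicases, the polymerases copy both strands, and the sliding clamp PCNA holds them on their template. Many genes for these proteins are known targets of E2F transcription factors and peak at the boundary of G1 and S, whereas genes of mitosis peak later and often carry a CHR element in their promoters.

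The promoter stretches below show where E2F words lie in genes of different roles in replication. They were picked for holding such a word, so its recurrence among them is no result. Of the genes with an E2F word, those are shown whose stretch before the start lies outside every annotated gene. They are RefSeq sequences of the assembly GRCm38.p6, written 5′ to 3′ on the strand of the gene, and capitals mark the E2F words; other words searched for stay in lower case, such as the CHR word in Gins3 and CCAAT words. The E2F words were TTTGGCGC, TTTCCCGC, TTTCGCGC and TTTGCCGC, read on both strands, and words on opposite strands can overlap. The stretch of Mcm5 is chr8:75109312-75109411 (plus strand), that of Mcm6 chr1:128359731-128359830 (minus), that of Gins3 chr8:95633459-95633558 (plus) and that of Rfc3 chr5:151651209-151651308 (minus).
Mcm5: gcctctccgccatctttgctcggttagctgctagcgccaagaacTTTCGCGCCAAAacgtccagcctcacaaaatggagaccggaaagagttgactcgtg
Mcm6: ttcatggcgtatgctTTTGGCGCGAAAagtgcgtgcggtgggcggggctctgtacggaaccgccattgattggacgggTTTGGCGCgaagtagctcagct
Gins3: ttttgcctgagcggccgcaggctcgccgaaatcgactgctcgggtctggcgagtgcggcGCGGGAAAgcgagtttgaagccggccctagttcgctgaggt
Rfc3: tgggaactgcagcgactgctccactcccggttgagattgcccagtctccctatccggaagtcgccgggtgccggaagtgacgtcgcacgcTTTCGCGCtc

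Mcm5 holds 2 overlapping E2F words in its stretch, Mcm6 holds 3, and Gins3 and Rfc3 hold 1 each. Of the 34 genes, 27 had a promoter window of 300 bases, and 13 of these 27 (48.1%) held an E2F word, against 704 of all 27025 genes with a window (2.60%). The genes with a word were Orc1, Cdc6, Cdt1, Mcm3, Mcm5, Mcm6, Mcm7, Gins3, Pola1, Pold1, Rfc3, Lig1 and Uhrf1. A window was not found for Ccne2, Gins1, Gins2, Gins4, Mcm4, Pole and Prim2. The CHR word TTTGAA was in 4 of 27 windows (14.8%), against 20.2% of all genes, and the word CCAAT in 17 (63.0%), against 41.1%. Of 29 mitosis genes with a window, 22 (75.9%) held the CHR word and 1 (3.45%) an E2F word. For comparison, stretches chosen the same way from the mitosis genes past the threshold given below, those of Kif11, a spindle motor gene, at chr19:37376282-37376381 (plus strand), and of Cdc20, a mitotic exit gene, at chr4:118437344-118437443 (minus), are given, here with only the CHR word in capitals.
Kif11: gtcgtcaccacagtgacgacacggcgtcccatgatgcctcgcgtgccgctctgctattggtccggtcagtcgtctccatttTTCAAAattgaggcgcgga
Cdc20: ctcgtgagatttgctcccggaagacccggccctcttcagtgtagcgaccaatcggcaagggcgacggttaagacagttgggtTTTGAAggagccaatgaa

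**Figure D1:**
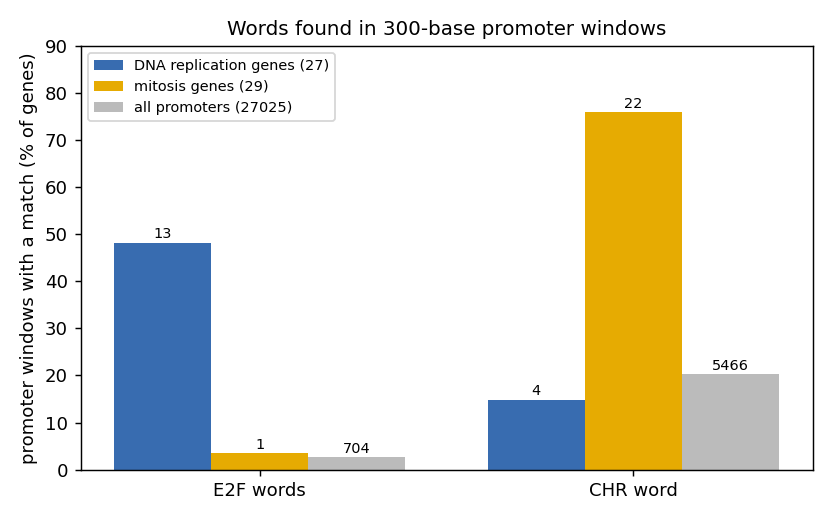
Share of genes (%) whose 300-base RefSeq promoter window holds an E2F word or the CHR word, for 27 DNA replication genes, 29 mitosis genes and all 27025 genes with a window. Numbers above the bars count the genes with a match. E2F words were found in 13 replication genes and 1 mitosis gene, the CHR word in 4 and 22.

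None of the 33 measurable replication genes differed between NOGGIN and control cultures past an adjusted p of 0.05 in limma. Each ratio is log2 of NOGGIN over control, with the channels assigned by dye as labelled, and is given as the mean of both arrays ± SD (n = 2). In the authors' deposited table the sign is turned for these arrays, so the direction is not settled, and turning it exchanges every "higher" and "lower" below while sizes and p-values stay. Of all 21337 genes, 1701 (7.97%) passed, 842 (3.95%) higher and 859 (4.03%) lower, against 0 and 0 of the 33. Of the 11288 genes in the signal range of the 33, 370 were higher and 380 lower. At an unadjusted p under 0.05, 3 of 33 replication genes passed (Pola1, Cdt1 and Tyms), against 23.2% of all genes. The means of the 33 ran from -0.20 to 0.26, with a median of 0.0050, beside a median of 0.00083 over all genes. In 23 of 33 the mean lay within 0.1 of 0, against 49.4% of all genes, and 0 of 33 reached 1.5-fold on both arrays in the same direction, against 2.90%.

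The smallest mean of any gene past the threshold was 0.36 in size, larger than the 0.26 of Pola1, the largest of the replication genes. The 95% intervals of limma for the ratio of NOGGIN to control lay within 1.5-fold in both directions for all 33 genes. The same held for 19064 of all 21337 genes and for 10340 of the 11288 in the signal range of the 33. The lowest bound among the 33 was 0.761 (Cdt1) and the highest 1.37 (Pola1). Each interval is for 1 gene alone. In 30 of 33 genes it included a ratio of 1, against 16384 of all 21337 genes. A p above the threshold does not show that a gene was the same in both cultures, and the number of arrays limits the precision.

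**Figure D2:**
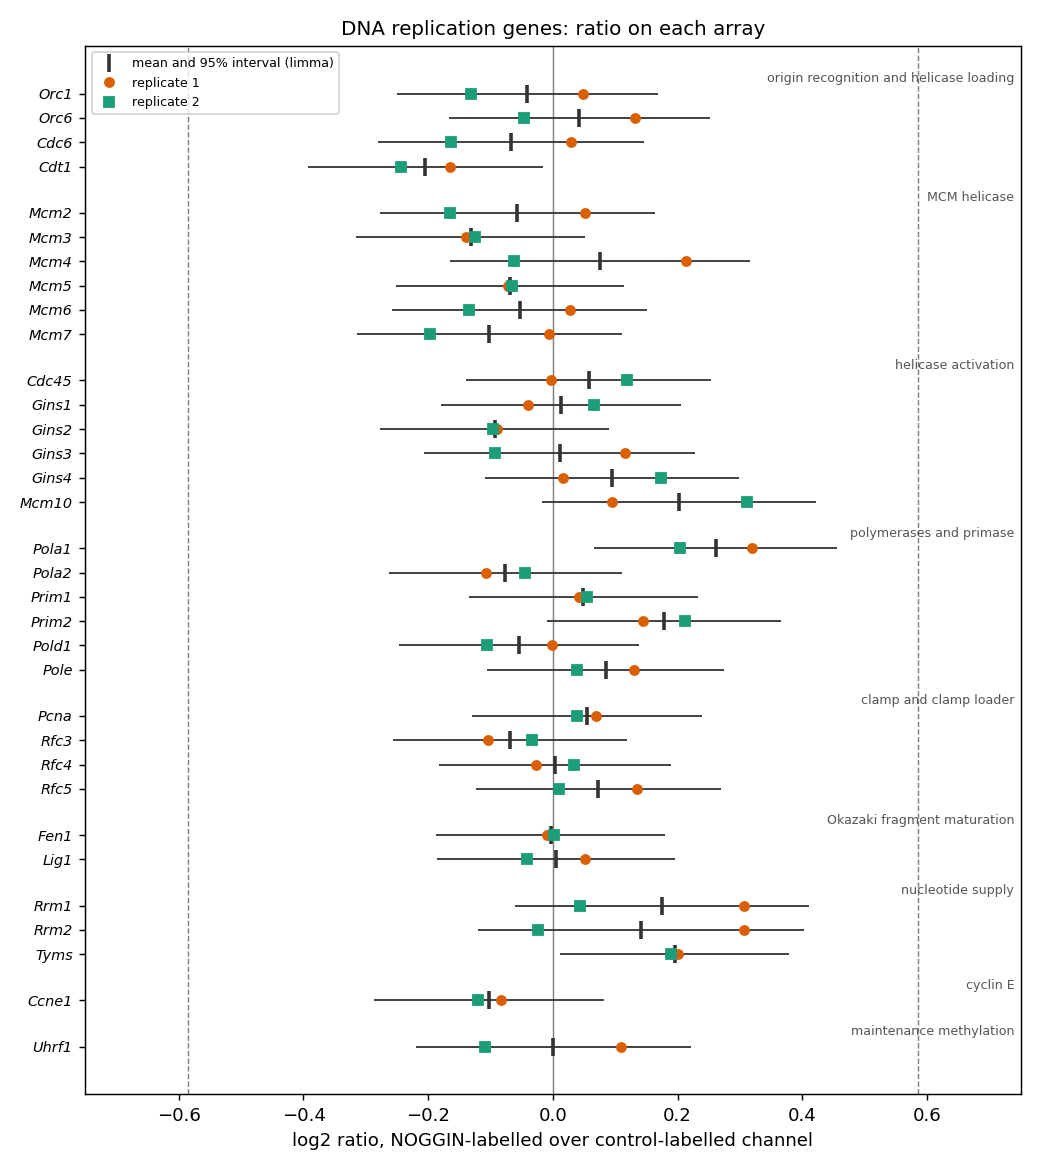
Log2 ratio of the NOGGIN-labelled over the control-labelled channel (horizontal axis) for 33 DNA replication genes, grouped by role. Circles and squares are replicates 1 and 2, vertical ticks their mean, bars the 95% interval of limma, and dashed lines mark 1.5-fold. Every interval lies between the dashed lines, and only those of Cdt1, Pola1 and Tyms leave out 0.

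Genes that mark and load origins gave 0 of 4 calls, against 7.97% of all genes. At that share a group this small would often give 0. Cdt1, whose product brings the MCM ring to the origin, had normalised log2 signals of 13.50 and 13.56 in the control channels of replicates 1 and 2 and of 13.33 and 13.32 in the NOGGIN channels. Both NOGGIN signals were below both control signals. Its ratio was -0.16 on replicate 1 and -0.24 on replicate 2, with a mean of -0.20 ± 0.056 (adjusted p = 0.185, limma). Orc1, the large ATPase subunit of the origin recognition complex, had signals of 10.57 and 10.58 in the controls and of 10.62 and 10.45 with NOGGIN, which overlap, and a mean ratio of -0.041 ± 0.13. Orc6, another subunit of this complex, gave 0.042 ± 0.13. Cdc6, the loader ATPase, gave -0.067 ± 0.14, and its other probe gave 0.0065 ± 0.15.

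The MCM2 to MCM7 subunits form the helicase ring in equal numbers. Mean ratios of their genes ran from -0.13 (Mcm3) to 0.076 (Mcm4). Mcm3 had signals of 13.40 and 13.28 in the controls and of 13.26 and 13.16 with NOGGIN. Both NOGGIN signals of Mcm3 lay below both control signals, with a mean ratio of -0.13 ± 0.0098 (adjusted p = 0.351, limma). Mcm7, the brightest of the 33 probes, had signals of 16.22 and 16.20 in the controls and of 16.21 and 16.00 with NOGGIN. Its mean of -0.10 ± 0.13 came from replicate 2, where the ratio was -0.20, against -0.0068 on replicate 1. Mcm4 went in opposite directions on the arrays, with 0.21 on replicate 1 and -0.062 on replicate 2. Mcm2 and Mcm6 did so too, with means of -0.057 ± 0.15 and -0.054 ± 0.11. Mcm5 gave nearly the same ratio on both arrays, with a mean of -0.069 ± 0.0042.

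Genes for activation of the helicase also gave 0 of 6 calls, against 7.97% of all genes. Mcm10, which acts when the loaded helicase starts to unwind, had signals of 12.90 and 12.74 in the controls and of 13.00 and 13.05 with NOGGIN. Both NOGGIN signals of Mcm10 were above both controls, and the mean ratio was 0.20 ± 0.15, with 0.095 on replicate 1 and 0.31 on replicate 2 (adjusted p = 0.246, limma). Cdc45, which travels with the helicase, gave 0.057 ± 0.086. The GINS complex has 4 subunits, and their genes did not share a direction. Gins1 and Gins3 gave 0.013 ± 0.075 and 0.011 ± 0.15, each with opposite signs on the arrays. Gins2 gave -0.093 ± 0.0043 and Gins4 0.095 ± 0.11.

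Among polymerase and primase genes the largest ratio of all 33 belonged to Pola1, the catalytic subunit of the polymerase that starts each strand. Its signals were 12.13 and 12.08 in the controls and 12.45 and 12.29 with NOGGIN. Both NOGGIN signals of Pola1 were above both controls, with ratios of 0.32 on replicate 1 and 0.20 on replicate 2, a mean of 0.26 ± 0.082 and a ratio of 1.20 (95% interval 1.05 to 1.37, adjusted p = 0.122, limma). Its partner gene Pola2 went the other way, with a mean of -0.077 ± 0.044. Prim2, the large primase subunit of the same complex, gave 0.18 ± 0.047, with signals of 13.14 and 13.13 in the controls and of 13.28 and 13.34 with NOGGIN. Prim1, the catalytic primase subunit, gave 0.049 ± 0.0092. Pold1 and Pole, the catalytic subunits of the lagging and leading strand polymerases, gave -0.054 ± 0.074 and 0.085 ± 0.064. A dim other probe of Pole gave 0.028 ± 0.10 with opposite signs. On the probes used, none of the 6 changed sign between the arrays.

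The clamp, its loader and the enzymes that join Okazaki fragments gave 0 of 6 calls, against 7.97% of all genes. Their means ran from -0.069 to 0.073. Pcna had signals of 15.56 and 15.67 in the controls and of 15.63 and 15.71 with NOGGIN. The groups overlap, and its mean ratio was 0.054 ± 0.022 (ratio 1.04, 95% interval 0.914 to 1.18). The clamp loader subunits Rfc3, Rfc4 and Rfc5 gave -0.069 ± 0.051, 0.0031 ± 0.043 and 0.073 ± 0.089, and the other probe of Rfc4 gave 0.0034 ± 0.078. Fen1, the flap endonuclease, had signals between 13.54 and 13.57 in all 4 channels and a mean ratio of -0.0033 ± 0.0078. Lig1, the ligase that seals the fragments, gave 0.0050 ± 0.065.

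The 3 genes of nucleotide supply had means above 0 and did not pass. Tyms, thymidylate synthase, had signals of 11.02 and 10.88 in the controls and of 11.22 and 11.07 with NOGGIN. The groups of Tyms did not overlap, and the ratios of 0.20 and 0.19 gave a mean of 0.20 ± 0.0074 (ratio 1.15, 95% interval 1.01 to 1.30, adjusted p = 0.192, limma). Rrm1 and Rrm2, the large and small subunits of ribonucleotide reductase, were higher on replicate 1 by 0.31 each. On replicate 2 they were at 0.044 and -0.023, so their means of 0.18 ± 0.19 and 0.14 ± 0.23 rest on 1 array. Rrm2 had the widest gap between the arrays among the 33 genes, 0.33.

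Of the cyclins that start S phase, Ccne1 gave -0.10 ± 0.027, and its other probe -0.076 ± 0.062. Ccne2 was the 1 gene without a test, since its probe was not well above background in any of the 4 channels. Uhrf1, which guides maintenance methylation to newly made DNA, had signals of 15.09 and 15.22 in the controls and of 15.20 and 15.11 with NOGGIN. Its ratios of 0.11 and -0.11 cancelled to 0.00060 ± 0.15. A dimmer probe of Uhrf1 gave -0.37 on replicate 1 and 0.015 on replicate 2, so the 2 probes did not give 1 picture on replicate 1.

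**Figure D3:**
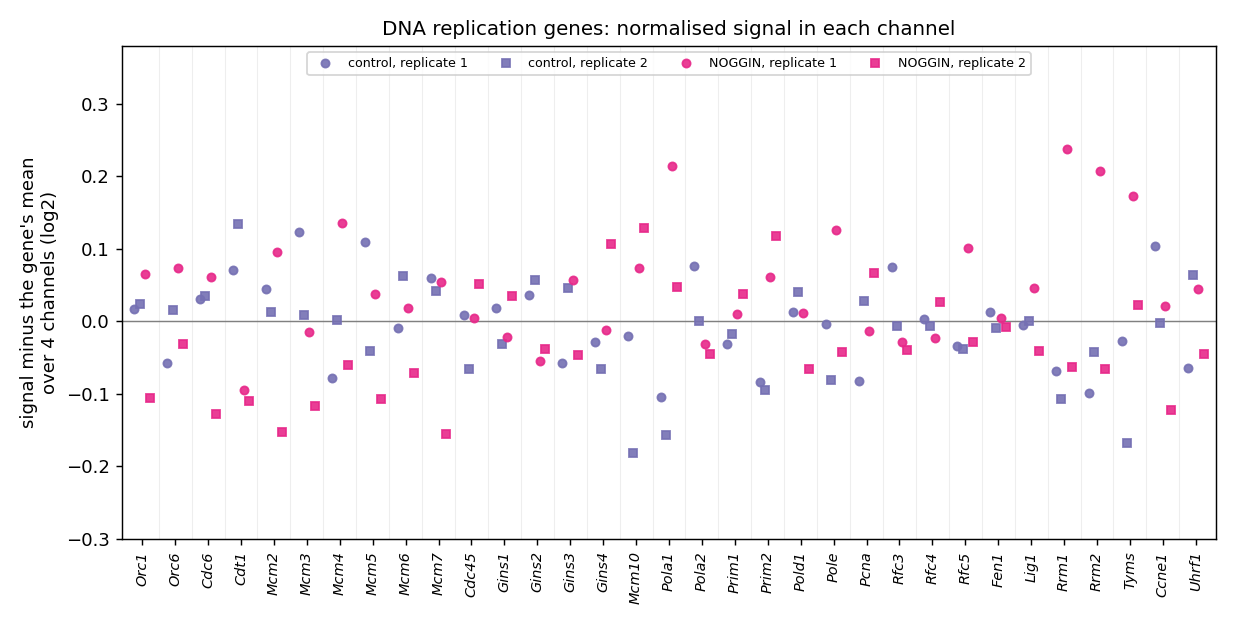
Normalised log2 signal of 33 DNA replication genes in each of the 4 channels, as the difference from that gene's mean over the channels (vertical axis), with control in purple, NOGGIN in pink, replicate 1 as circles and replicate 2 as squares. Values run from -0.18 (Mcm10, control of replicate 2) to 0.24 (Rrm1, NOGGIN of replicate 1).

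Signals of NOGGIN and control channels did not overlap in 14 of 33 genes, against 51.2% of all genes. NOGGIN lay above control in 8 of them, against 25.5% of all genes. These were Gins4, Mcm10, Pola1, Prim1, Prim2, Rfc5, Rrm1 and Tyms. It lay below control in 6, namely Cdt1, Mcm3, Gins2, Pola2, Pold1 and Rfc3, against 25.7% of all genes. The sign was the same on both arrays for 19 of 33 genes, against 66.7% of all genes, with 10 higher on both (all genes 33.6%) and 9 lower on both (all genes 33.1%). The ratio was larger on replicate 1 than on replicate 2 in 21 of 33, against 11633 of all 21337 genes. It was so in 6810 of the 11288 genes in the signal range of the 33. The median ratio of the 33 was 0.042 on replicate 1 and -0.041 on replicate 2. In that signal range the medians were 0.016 and -0.020. Across the 33 genes, which share the arrays and are not independent, the Pearson r of the arrays' ratios was 0.438, against 0.702 across all genes. Repeat spots of a probe varied less than the arrays did. The SD over the spots of a probe had a median of 0.040 on replicate 1 and 0.031 on replicate 2, while the SD between arrays had a median of 0.075.

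Other genes of replication, taken from 4 lists by role, gave 0 calls of 62 in limma, against 7.97% of all genes. At an unadjusted p under 0.05 there were 8, against 23.2% of all genes. The median of the 62 was 0.048. Among 15 genes of origins and MCM partners the largest values were those of Cdc7 and Dbf4, the kinase that fires origins and its activating subunit, at -0.20 ± 0.076 and 0.20 ± 0.037. Among 22 genes of polymerase subunits, RPA and the fork they were Atad5, which unloads the clamp, at 0.22 ± 0.12, and Clspn, a checkpoint adaptor, at 0.19 ± 0.068. Of 15 nucleotide synthesis genes, 5 had an unadjusted p under 0.05, against 23.2% of all genes. The largest values were Rrm2b, the reductase subunit induced by p53, at 0.30 ± 0.073 (adjusted p = 0.0889, limma) and Ctps, which makes CTP, at -0.29 ± 0.19. Both probes of Rrm2b were dim, with mean log2 signals of 7.99 and 7.05. The dimmer one gave 0.17 ± 0.38, with opposite signs on the arrays. Of 10 chromatin assembly and methylation genes the largest were Dek at 0.18 ± 0.17 and the histone chaperone gene Asf1b at 0.18 ± 0.077.

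Among genes that control entry into S phase, 2 passed, in lists of 25 and 12 genes. Of all genes, 7.97% passed and 23.2% had an unadjusted p under 0.05. Of 25 E2F and RB regulators 0 passed, with 8 at an unadjusted p under 0.05. The proto-oncogene Myc was at -0.39 ± 0.11 (adjusted p = 0.0530, limma) and Ccna2, the cyclin of S phase and G2, at 0.36 ± 0.089 (adjusted p = 0.0587). The median of this list was 0.019. Of 12 D cyclins and CDK inhibitors, Cdkn1a, which encodes the CDK inhibitor p21, was lower at -0.86 ± 0.19, though a second, dim probe of Cdkn1a gave -0.0042 ± 0.11, with opposite signs on the arrays. Cdkn2c, an inhibitor of CDK4 and CDK6, was higher by 0.52 ± 0.11, while the other 10 did not pass.

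Mitosis genes, measured on the same arrays, had higher ratios than the replication genes. Of 34 measured mitosis genes 15 were higher and 0 lower, beside 0 and 0 of the 33 replication genes. The shares of all genes were 3.95% and 4.03%. At an unadjusted p under 0.05 there were 30 mitosis genes, beside 3 replication genes and 23.2% of all genes. All 34 were higher on both arrays, beside 10 of 33 and 33.6% of all genes. The median was 0.36 (0.33 on replicate 1 and 0.40 on replicate 2). The medians of the lists thus lay 0.29 apart on replicate 1 and 0.44 apart on replicate 2. Of the 34 mitosis genes, 27 had a mean above that of Pola1. Nusap1 and Hmmr, which act on the spindle, were higher by 0.55 ± 0.053 and 0.48 ± 0.018. Mki67, the Ki-67 antigen of cycling cells, was higher by 0.51 ± 0.030 and Ccnb1, the mitotic cyclin, by 0.47 ± 0.028. No test of the difference between the lists was made, since the genes of a list are not replicates. Both lists were also chosen with earlier results of these data known. None of the 15 reached 1.5-fold on both arrays. The count of 15 fell to 0 with median centring in place of loess, to 6 with Agilent's processed signals and to 4 with the deposited table, while all 34 values stayed above 0 in each.

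**Figure D4:**
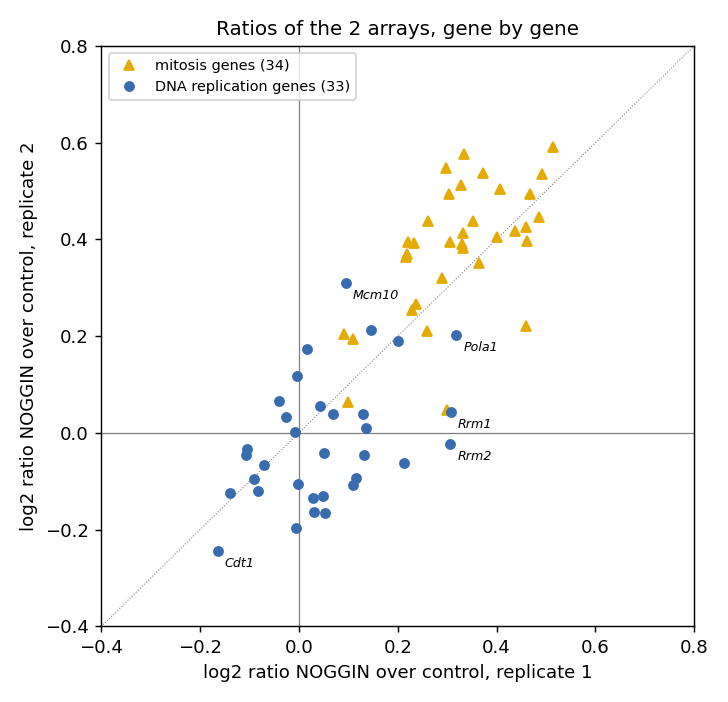
Log2 ratio of NOGGIN over control on replicate 1 (horizontal axis) and replicate 2 (vertical axis) for 33 DNA replication genes (circles) and 34 mitosis genes (triangles), with a dotted line of equal values. All triangles lie above 0 on both axes, while 14 of 33 circles have opposite signs on the arrays.

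**Figure D5:**
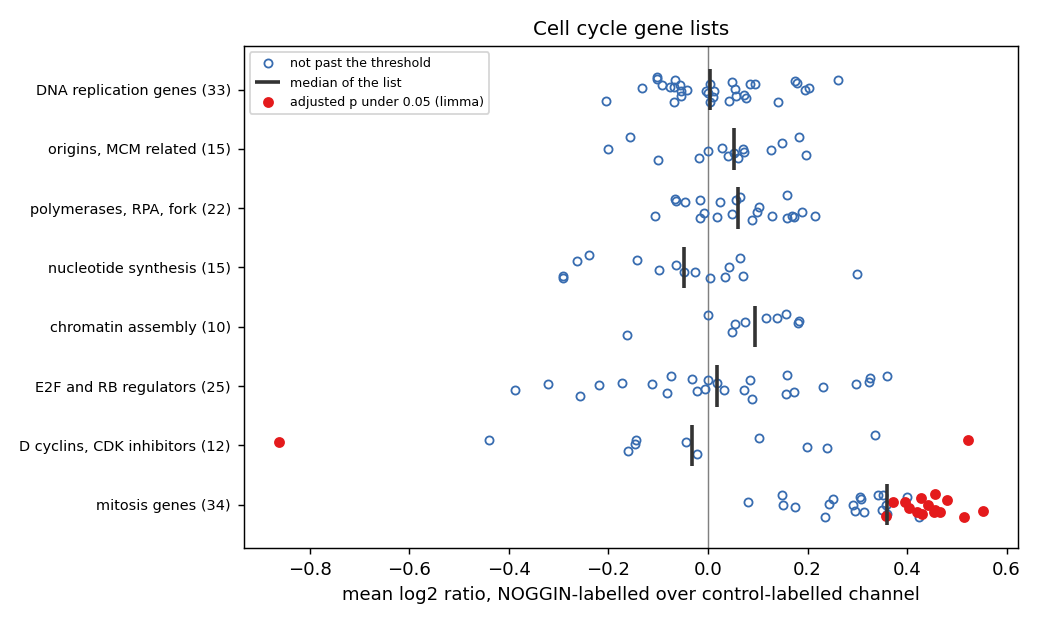
Mean log2 ratio of NOGGIN over control (horizontal axis) of each gene in 8 cell cycle lists, 1 point per gene. Filled points passed an adjusted p of 0.05 in limma, and vertical bars are list medians. Filled points occur among the D cyclins and CDK inhibitors (2) and the mitosis genes (15).

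Probes for markers of the labelled tissue gave clear signal. All 8 mesenchyme and all 9 epithelium markers were well above background, with mean log2 signals up to 17.42 (Acta2) and 16.57 (Krt18). Several markers differed between the cultures. Tbx18 was higher by 1.25 ± 0.27 and Tcf21 by 0.62 ± 0.14, and the smooth muscle genes Acta2 and Myh11 were lower at -1.16 ± 0.23 and -0.91 ± 0.14. Of the 9 epithelium markers, 5 were higher on both arrays and 2 lower on both, with a median of 0.081 and 4 at an unadjusted p under 0.05. The claudin gene Cldn4, at -0.55 ± 0.22, was the 1 that passed. Upk1b, Krt19 and Krt8 lay on the other side of 0, at 0.48 ± 0.31, 0.46 ± 0.29 and 0.23 ± 0.15, without passing, and were named after their values were seen. Markers of other cells were measured as well. Of 7 macrophage markers 0 passed, with a median of -0.30 (Aif1 -0.49 ± 0.47, C1qb -0.37 ± 0.16, Csf1r -0.054 ± 0.28), and of 6 endothelial markers 0 passed, with a median of 0.18 (Cdh5 0.34 ± 0.13, Emcn 0.25 ± 0.070, Kdr 0.19 ± 0.076). At an unadjusted p under 0.05 there were 4 and 2 of them, against 23.2% of all genes, of which 7.97% passed the threshold. The lowest endothelial mean was 0.015, and a dimmer probe of Kdr gave 0.030 ± 0.064, with opposite signs on the arrays. Of 6 neural markers Stmn2 was higher by 0.70 ± 0.093. The 4 measured red blood cell markers lay between -0.020 and 0.063, with Hba-a2 at 0.063 ± 0.25 and Hba-a1 at 0.027 ± 0.060. The part of any of these cells in the replication gene values was not tested.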

How the data were processed

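Spot intensity was read from the deposited scanner files of 2 arrays, for which the submitters' processing notes name Agilent Feature Extraction, version 10.7.3.1. They also hold a log10 ratio, which per the file headers is red over green, and which was only checked against the processed signals. The deposited value table holds signed fold changes per array, treated as a score whose normalisation and direction are not stated, with a median of 1 in each column. Its log2 values had r = -0.983 and -0.984 with the label-oriented ratios. Per the labels' dyes, Alexa Fluor 647 was read as red and Alexa Fluor 555 as green.

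Background was corrected with normexp (offset 50) and each array normalised with loess. Control, filler and outlier-flagged spots (3.69%) were given weight 0. Spots were averaged, probes named through a RefSeq table of GRCm38.p6 (28328 of 39429), and 26712 probes kept that had a share above 0.5 of spots well above background on both arrays in at least 1 condition. The brightest probe stood for its gene. Probes without a symbol were grouped by accession, so 15806 of the 21337 genes tested had a symbol. Log2 ratios of 21337 genes were tested against 0 with limma 3.58.1, run under R 4.3.3 (two-sided tests, p-values adjusted by Benjamini-Hochberg over all genes, 1 residual and 4.12 prior degrees of freedom). The number of arrays limits the precision. Ratios are relative to all genes of an array, so a shift of all transcripts would not show. Signals per channel were scaled between arrays (Aquantile).

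Members and lists were chosen with earlier results of these data known. All members are named, with the up to 4 largest changes past the threshold of each other list, or the 2 largest where none passed, and the brightest marker of each marker list. A marker that falls under this rule is not reported here.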

Additional observations from a re-analysis of the deposited data

How the results depend on the processing

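Under the 11 alternatives with a test, 0 of the replication genes passed as higher or as lower, with 0 to 5 at an unadjusted p under 0.05 and a smallest adjusted p of 0.0833 (limma with an intensity trend). Without the filter on dim probes Ccne2 entered as the 34th gene and did not pass. Values of the 33 stayed between -0.27 and 0.27. With median centring in place of loess the median of the replication genes moved to -0.073 (all genes -0.038), 10 of 33 genes changed sign, 0 of all genes passed, and 0 mitosis genes were higher past the threshold, though all 34 kept a value above 0, with a median of 0.31. Of the mitosis genes, 6 passed with Agilent's processed signals and 4 with the deposited table, sign turned. At an adjusted p of 0.10, 2691 of all genes and 25 mitosis genes passed. The cause of these moves was not tested. With 1 array alone the median of the replication genes was -0.041 to 0.042 and that of the mitosis genes 0.33 to 0.40, as values with no test. The test was already paired, because each array compares 1 control with 1 NOGGIN culture and the ratio within an array was tested.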

Other observations

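The ratios of the replication genes were also set beside the E2F words in their promoter windows. The 13 replication genes with an E2F word had means from -0.20 (Cdt1) to 0.26 (Pola1), with a median of -0.054. The 14 genes whose window held no E2F word had means from -0.10 (Ccne1) to 0.20 (Mcm10), with a median of 0.052, and the 6 measured genes with no window a median of 0.080. These are descriptions with no test.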
